A study of Mus musculus with 6 samples.

Results

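Complement transcripts were followed through 9 genes of cultured mouse fat cells: the proteases C1ra, C1s1 and Masp1, the convertase components C2, C3, C4b and Cfb, and the regulators Serping1 and Cd55. They were taken by symbol from the 53801 genes of the deposited count table, and all 9 were abundant enough to be tested. In Ythdf1 knockout cultures C2, C3 and C4b were between 1.62 and 1.73 times as high as in wild type. C1ra and C1s1 were higher by smaller factors, 1.31 and 1.23. Masp1, Cfb, Serping1 and Cd55 did not pass the test.

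Complement is a cascade of plasma proteins that marks surfaces for uptake and can perforate membranes. In the classical pathway, C1q bound to its target activates the proteases C1r and C1s, which cleave C4 and C2 to form an enzyme that splits C3. The lectin pathway reaches the same step through the MASP proteases, and the alternative pathway builds a second C3-splitting enzyme from C3 itself and factor B after cleavage by factor D. Liver is the main source of the plasma proteins, and adipocytes, their progenitors and macrophages also make several of them. Factor D is known as adipsin because it was found as a product of fat cells.

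The cells were stromal vascular fraction, the mixed non-adipocyte cells of fat, isolated from inguinal fat pads of wild-type mice or Ythdf1 knockout mice. Ythdf1 encodes a cytoplasmic reader of the m6A mark on RNA. Both groups were cultured and put through 4 days of adipogenic induction, and each had 3 libraries, called biological replicates in the series. The sources used here do not give how the allele was made, which cells of the animal carry it, or the sex and age of the mice. The Ythdf1 transcript itself was 43.8 ± 1.16 (SD, n = 3) CPM in knockout and 61.8 ± 1.34 (SD, n = 3) CPM in wild type, so much of its signal remained, and the deleted stretch is not named in the labels. CPM is the usual depth-scaled count, relative here to the TMM-scaled library total. Totals ran from 16619605 to 20089138 counts, and 3 counts corresponded to 0.146 to 0.185 CPM. The induced cells carried defining markers of mature adipocytes in all 6 libraries, with summed levels of 8 such genes between 12066 and 16899 CPM in knockout and between 2088 and 3286 CPM in wild type. Knockout replicate 3 stood apart from the rest in macrophage markers, and results that move with them are given without it as well. Because these were bulk cultures, a change in the share of a cell type and a change in RNA per cell cannot be told apart.

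Most of the complement signal came from 5 of the 9 genes. C1ra, C1s1, C3, C4b and Serping1 together made up 98.4% to 98.9% of the summed CPM of the 9 in each library. That sum was 7600, 7239 and 6813 CPM in knockout replicates 1 to 3 and 4106, 5217 and 6330 CPM in wild-type replicates 1 to 3, so the genotypes did not overlap. As a share of every count in a library, C3 ran from 0.286% to 0.356% in knockout and from 0.138% to 0.240% in wild type.

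**Figure D1:**
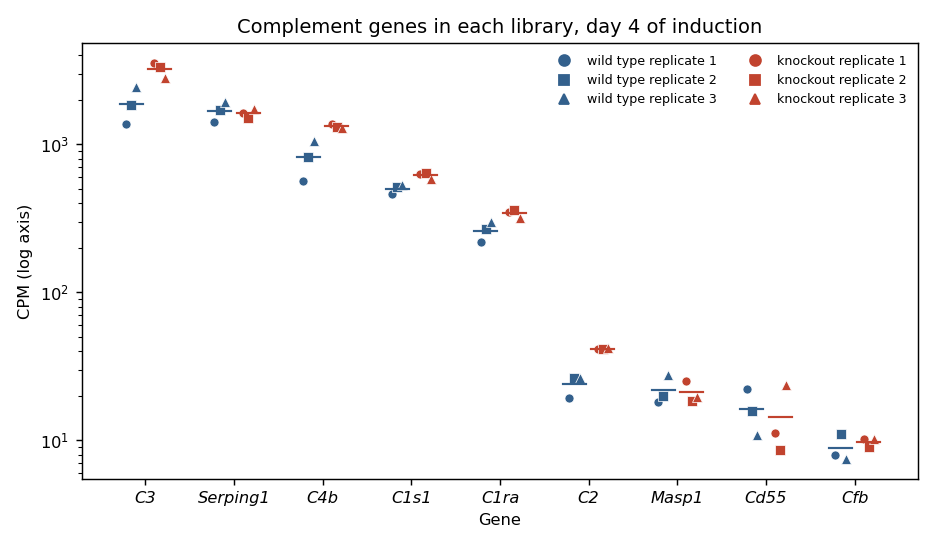
CPM of each gene (log axis) in every library, with horizontal lines at the genotype means (n = 3 each). C3, C4b, C1s1, C1ra and C2 separate the genotypes, and the points of Serping1, Masp1, Cd55 and Cfb overlap.

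Per length, the order of the genes was led by Serping1 and C3. Divided by annotated exon length, Serping1 was at 699 ± 48.6 (SD, n = 3) CPM per kilobase in knockout and 725 ± 113 (SD, n = 3) in wild type. C3 was at 627 ± 74.6 CPM per kilobase in knockout and 366 ± 103 in wild type. It was below Serping1 within each of the 6 libraries, narrowly so in knockout replicates 1 and 2, and across libraries the 2 genes overlapped in knockout and not in wild type. C4b, C1s1 and C1ra followed at 232 ± 7.53, 197 ± 10.1 and 115 ± 7.42 CPM per kilobase in knockout. In wild type C4b (143 ± 43.6) and C1s1 (160 ± 10.8 CPM per kilobase) overlapped. C2 was far lower, at 10.7 ± 0.136 CPM per kilobase in knockout and 6.18 ± 1.03 in wild type. Cfb, Cd55 and Masp1 were lowest, between 2.14 and 3.47 CPM per kilobase in the mean of either genotype, and did not differ beyond their spread in wild type.

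Of the 9 genes, 5 were higher in knockout and 0 lower at a Benjamini-Hochberg adjusted p under 0.05 from the quasi-likelihood test of edgeR. The same 5 had all knockout libraries above all wild-type libraries. Changes were common in these cultures. Of 14816 genes tested, 44.3% passed, 22.6% higher and 21.7% lower. The knockout libraries lay wholly above the wild-type libraries for 27.9% of genes and wholly below for 27.3%. The median log2 fold change of the 9 genes was 0.30, beside 0.01 over all genes tested.

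**Figure D2:**
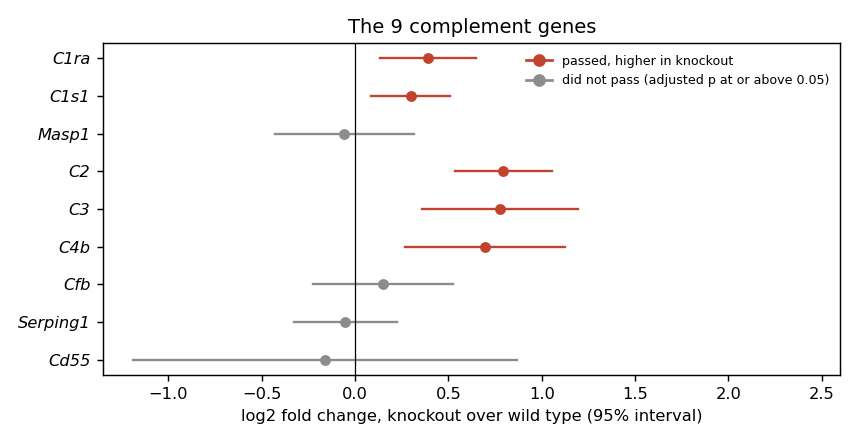
Log2 fold change, knockout over wild type, with 95% intervals from edgeR for the 9 genes. The 5 genes in red passed, and the interval of Cd55 is the widest, from a fold of 0.438 to 1.82.

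The proteases that open the classical pathway were moderately higher in knockout. C1ra encodes C1r, which activates C1s. It was at 351, 360 and 318 CPM in knockout replicates 1 to 3 and 220, 266 and 299 CPM in wild-type replicates 1 to 3. Each knockout value exceeded each wild-type value, with wild-type replicate 3 nearest. The log2 fold change was 0.39 ± 0.12 (SE), with an edgeR adjusted p of 0.0178. C1s1 encodes C1s, the protease that cleaves C4 and C2. It was at 632, 638 and 580 CPM in knockout and 464, 514 and 528 CPM in wild type, again without overlap. Its log2 fold change of 0.30 ± 0.097 (SE) had an edgeR adjusted p of 0.027.

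Both calls depended on single libraries. Without knockout replicate 1, wild-type replicate 1 or wild-type replicate 2, the edgeR adjusted p of C1ra was 0.065, 0.065 and 0.060. That of C1s1 was 0.10, 0.089 and 0.083. The call for C1s1 also ended with upper-quartile scaling (edgeR adjusted p = 0.057).

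C1ra and C1s1 are convergent neighbours within 29.95 kb of chromosome 6 in GRCm38, C1ra on the plus strand (chr6:124512405-124523443) and C1s1 on the minus strand (chr6:124530345-124542359). Each has a close copy in the same cluster. Of the stretches of 150 bases, the read length, in the longest C1ra transcript, 26.3% occurred unchanged in C1rb. For C1s1, 375 of 2797 stretches (13.4%) occurred in C1s2 or in the antisense gene Gm16567. Gm16567 overlaps C1s1 on the opposite strand and had 0 counts in each library. In the reverse direction, 80 stretches of C1s2 (3.18%) occurred in C1s1. How reads with several matches were counted is not given, so these levels are uncertain. The copies themselves were low. C1rb had 5 to 16 counts and C1s2 had 53 to 77 counts per library, and neither passed the test (edgeR adjusted p = 0.426 and 0.57).

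Masp1, a protease gene of the lectin pathway, did not differ detectably. It was at 25.0, 18.4 and 19.7 CPM in knockout and 18.3, 19.8 and 27.5 CPM in wild type, with full overlap. The fold was 0.961 (95% interval 0.743 to 1.24), with an edgeR adjusted p of 0.809.

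The convertase components C2, C3 and C4b had the largest rises of the 9. C2 encodes the protease subunit that joins cleaved C4. It was at 41.1, 41.3 and 42.1 CPM in knockout and 19.3, 26.3 and 26.2 CPM in wild type. The knockout libraries were nearly equal, all above wild type. The fold was 1.73 (95% interval 1.45 to 2.08; log2 fold change 0.79 ± 0.12, SE), with an edgeR adjusted p of 0.000256. This call held in each alternative run, with edgeR, DESeq2 or limma adjusted p-values up to 0.00185.

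C3, on which all 3 pathways converge, was at 3536, 3340 and 2795 CPM in knockout and 1372, 1846 and 2426 CPM in wild type. All knockout values were above wild type, and the wild-type libraries themselves ranged over a factor of 1.77. The fold was 1.71 (95% interval 1.28 to 2.29; log2 fold change 0.78 ± 0.19, SE), with an edgeR adjusted p of 0.00696. C4b, whose product forms the classical convertase with C2, was at 1370, 1312 and 1287 CPM in knockout and 564, 824 and 1060 CPM in wild type. Its knockout libraries lay close together, and its wild-type libraries ranged over a factor of 1.88. The fold was 1.62 (95% interval 1.21 to 2.18; log2 fold change 0.70 ± 0.19, SE), with an edgeR adjusted p of 0.0143. Without knockout replicate 2 neither call held (edgeR adjusted p = 0.057 for C3 and 0.088 for C4b), while their log2 fold changes stayed at 0.75 and 0.71.

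In wild type the same replicates were low and high for C3, C4b, C1ra, C1s1, Serping1 and Masp1, with replicate 1 lowest and replicate 3 highest. The summed mature adipocyte markers were 2088, 3235 and 3286 CPM in wild-type replicates 1 to 3. The part of adipocyte content in this spread was not tested. In knockout the adipocyte sum was highest in replicate 2, at 16899 CPM, as were C1ra and C1s1. C3, C4b and Masp1 were highest in knockout replicate 1, and Serping1 in knockout replicate 3.

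C4b has a close relative, C4a, which GENCODE annotates as a processed transcript and which shares 8.26% of the stretches of 150 bases of C4b. C4a was at 3.90, 3.13 and 3.31 CPM in knockout and 1.357, 1.174 and 1.2002 CPM in wild type, which also separated the genotypes. Its fold of 2.76 (95% interval 1.86 to 4.10) had an edgeR adjusted p of 0.00085. C4a stood at far lower levels than C4b, and reads of C4a and misassigned reads of C4b cannot be told apart in these counts.

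Cfb encodes factor B, the alternative pathway counterpart of C2. It was at 10.2, 8.98 and 10.2 CPM in knockout and 7.97, 11.1 and 7.49 CPM in wild type, and the highest value was a wild-type one. The fold was 1.11 (95% interval 0.856 to 1.44), with an edgeR adjusted p of 0.509.

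The levels of C2 and Cfb are affected by their annotation. The genes lie head to tail on the minus strand of chromosome 17 in GRCm38, C2 at chr17:34862604-34898265 and Cfb at chr17:34856374-34862518, 85 bases apart, with C4b at chr17:34728380-34743882 in the same region. A gene model on the same strand, Gm20547, runs through both and shares 1656 of the 3872 exon bases of C2 and 2246 of the 2825 of Cfb. Gm20547 had 0 counts in each of the 6 libraries. The sources used here do not give the treatment of reads that fall on 2 genes. Over the unshared bases alone, a calculation chosen after the annotation had been seen, Cfb would stand at 16.9 CPM per kilobase in knockout and 15.3 in wild type, and C2 at 18.7 and 10.8. The low level of Cfb is therefore uncertain, whereas both genotypes were counted over the same bases.

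**Figure D3:**
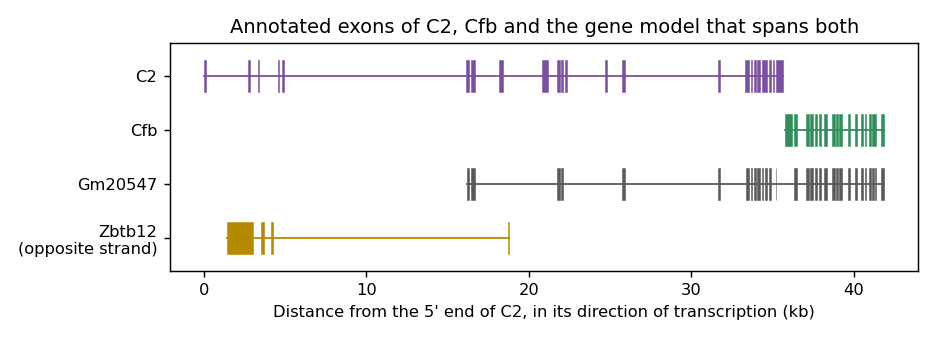
Annotated exons (boxes) of C2, Cfb, the gene model Gm20547 and the opposite-strand gene Zbtb12, against distance in kb from the 5′ end of C2. Gm20547 covers 79.5% of the exon bases of Cfb and 42.8% of those of C2.

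Promoter windows of 300 bases, from 250 before to 50 after the transcript start, were available for 4 of the 9 genes, C1ra, C1s1, C3 and Cd55, from RefSeq on GRCm38.p6. Those of the 3 that were higher in knockout are shown, a choice made on the result. C2 and C4b, which were also higher, had no window. Cd55 was the only gene with a window that did not pass, so matches cannot be compared between genes that rose and genes that did not. C/EBP, STAT, interferon and NF-kB factors are known to act on complement genes, and simple forms of their motifs were searched on both strands. The C/EBP form TTNNGNAA occurred in 40.7% of the 32851 windows of the table, the STAT form TTCNNNGAA in 8.3%, an interferon response form (GAAA, 2 bases of any kind, GAAA) in 3.44% and an NF-kB form (GGG, 2 bases of any kind, TTTCC) in 1.63%. Capitals mark matches, and each sequence runs 5′ to 3′ on the strand of the gene. C3 is on the minus strand at chr17:57228087-57228386, C1ra on the plus strand at chr6:124512371-124512670 and C1s1 on the minus strand at chr6:124542310-124542609.
C3: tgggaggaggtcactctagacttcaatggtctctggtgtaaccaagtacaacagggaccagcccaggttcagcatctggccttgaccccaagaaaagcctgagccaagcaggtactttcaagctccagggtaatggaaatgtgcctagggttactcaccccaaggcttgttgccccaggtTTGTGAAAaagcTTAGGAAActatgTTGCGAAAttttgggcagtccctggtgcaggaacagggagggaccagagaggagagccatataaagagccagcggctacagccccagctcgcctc
C1ra: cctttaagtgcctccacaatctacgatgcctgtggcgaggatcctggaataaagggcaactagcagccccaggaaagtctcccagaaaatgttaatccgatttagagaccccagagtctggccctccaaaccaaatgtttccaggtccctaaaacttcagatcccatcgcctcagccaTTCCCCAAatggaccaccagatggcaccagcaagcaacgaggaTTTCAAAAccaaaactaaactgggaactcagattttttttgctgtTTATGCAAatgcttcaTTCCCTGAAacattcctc
C1s1: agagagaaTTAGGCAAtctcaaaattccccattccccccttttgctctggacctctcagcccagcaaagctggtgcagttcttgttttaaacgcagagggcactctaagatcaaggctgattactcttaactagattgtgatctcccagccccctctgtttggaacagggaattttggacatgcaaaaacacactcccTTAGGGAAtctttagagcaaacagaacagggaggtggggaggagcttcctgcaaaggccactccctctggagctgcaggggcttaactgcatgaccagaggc
The C3 window held the C/EBP form at 3 places within a short stretch, TTGTGAAA, TTAGGAAA and TTGCGAAA, which start at bases 181, 193 and 206 of the window. TTGCGAAA matched on both strands. The C1ra window held the C/EBP form at 3 places and the STAT form once, as TTCCCTGAA. The GENCODE gene of C1ra starts at chr6:124512405, upstream of this RefSeq start, so these matches lie within the annotated gene. The C1s1 window shown held the C/EBP form at 2 places, and a second RefSeq window of C1s1, chr6:124542272-124542571 for another transcript start, held it at 1. None of the forms occurred in the Cd55 window, and no NF-kB or interferon form occurred in any window of the 4 genes. Given its share of all windows, a match to the C/EBP form is common, and matches are descriptions of letters only.

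Neither regulator passed the test. Serping1 encodes C1 inhibitor, which inactivates C1r, C1s and the MASP proteases. It was at 1624, 1511 and 1737 CPM in knockout and 1418, 1694 and 1944 CPM in wild type. The wild-type libraries spanned the knockout ones. The fold was 0.963 (95% interval 0.796 to 1.17), with an edgeR adjusted p of 0.761, so a rise as large as the estimate for C3 lay outside its interval. C3 made up 41.0% to 46.5% of the summed CPM of the 9 genes in knockout and 33.4% to 38.3% in wild type.

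Cd55 encodes decay-accelerating factor, a membrane protein that takes convertases apart. It was at 11.2, 8.52 and 23.5 CPM in knockout and 22.1, 15.7 and 10.9 CPM in wild type. Replicate 3 stood apart among the knockout libraries, above every wild-type value, and replicates 1 and 2 lay in or below the wild-type range. The fold was 0.893 (95% interval 0.438 to 1.82), with an edgeR adjusted p of 0.79. Without knockout replicate 3 the log2 fold change was -0.72 (edgeR adjusted p = 0.065), and without wild-type replicate 1 it was 0.12. Knockout replicate 3 also had the highest macrophage markers, 725 CPM summed over 10 genes against 273 and 269 CPM in the other knockout libraries. The part of those cells in the Cd55 value was not tested. The copy Cd55b had at most 2 counts in a library.

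**Figure D4:**
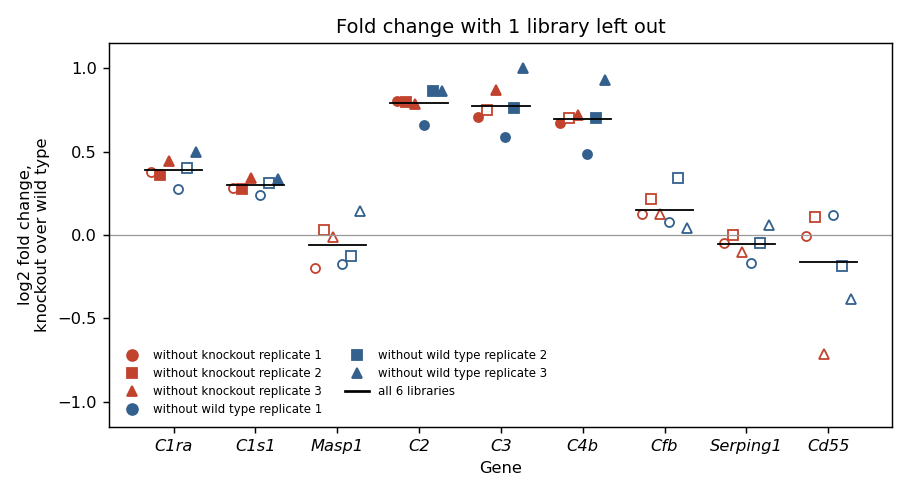
Log2 fold change of each gene with 1 library left out (points, coloured by the genotype of the library removed) and with all 6 (black lines). Filled points passed in edgeR and open points did not, and C2 alone kept its call in all 6 refits.

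The names of the libraries end in L0 or L1, whose meaning the labels do not state, with L0 once in each genotype. Between the L0 libraries, 1 per genotype and so without a replicate check, C3 was 1.38 times, C4b 1.24 times and C2 1.58 times as high in knockout. Among the L1 libraries, 2 per genotype, the ratios of means were 1.97, 1.91 and 1.82. C1ra had ratios of 1.21 and 1.38 and C1s1 of 1.21 and 1.24. All 5 kept their direction in both, and with the suffix as a covariate 5 of the 9 passed. Serping1 was at a ratio of 0.777 between the L0 libraries and 1.08 among the L1 libraries.

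Markers of other cell types, among them types that make complement, moved in different ways. Their counts are to be read against all genes tested, of which 22.6% were higher and 21.7% lower. Macrophage markers, 10 genes in all, summed to 269 to 725 CPM in knockout and 89.6 to 161 CPM in wild type, and 6 of them rose and 0 fell. Knockout replicate 3, which was highest in that sum, was the lowest knockout library for C1ra, C1s1, C3 and C4b. It was the highest for C2 (42.1 CPM, narrowly), Serping1 (1737 CPM) and Cd55 (23.5 CPM), and lay between the others for Masp1 and Cfb. Without knockout replicate 3 the log2 fold change of C3 was 0.87 (edgeR adjusted p = 0.0059). Liver makes much plasma complement, and the 7 hepatocyte markers, of which 6 fell and 0 rose, summed to 17.2 to 24.5 CPM in knockout and 38.0 to 51.7 CPM in wild type. Among 8 progenitor and fibroblast markers, 5 fell and 0 rose. The 8 summed to 11072 to 11718 CPM in knockout and 21167 to 23142 CPM in wild type. Col1a1 made up most of both sums and of their difference, at 7480 ± 385 (SD) CPM in knockout and 17724 ± 1055 in wild type. Pdgfra, Ly6a and Dcn did not pass, with folds of 0.855, 1.07 and 0.956. Colon epithelium markers, 8 genes of low level, all fell. The part of these cell types in the complement results was not tested.

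Outside the 9, 51 other complement genes were listed by role. Of these, 30 were abundant enough to test, 17 were higher and 2 lower, and 11 did not pass, where 22.6% of all genes tested were higher and 21.7% lower. The same shares are the background for the counts by role, each over 8 genes or fewer. Their median log2 fold change was 0.82. The list includes genes typical of macrophages and of mature adipocytes, whose markers rose as well. The 21 genes too low to test reached at most 20 counts in a library and included Masp2, the mannose-binding lectin genes Mbl1 and Mbl2, and C6, C8a, C8b and C9 of the membrane attack complex.

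Among 8 tested genes of initiation, 5 rose and 0 fell. The genes of the 3 chains of C1q, the target-binding part of C1, rose together. C1qa was at 9.13, 11.1 and 31.0 CPM in knockout and 3.96, 3.65 and 2.91 CPM in wild type. Replicate 3 was far above the other knockout libraries. The log2 fold change of C1qa was 2.29 (edgeR adjusted p = 0.012), and 1.53 without knockout replicate 3. C1qb and C1qc had log2 fold changes of 2.39 and 2.22, and of 1.74 and 1.54 without that library. The call for C1qa ended without wild-type replicate 1 (edgeR adjusted p = 0.065), and that for C1qb without knockout replicate 2 (0.052). Without the low-count filter the calls of C1qa, C1qb and C1qc ended, with edgeR adjusted p-values of 0.090, 0.083 and 0.072. C1rl, a relative of C1r, was at 39.2 ± 1.58 (SD, n = 3) CPM in knockout and 22.3 ± 2.41 in wild type, a fold of 1.76 (edgeR adjusted p = 7.43e-05). Fcna, the gene of the lectin ficolin A, had 1.12 ± 0.561 CPM in knockout against 0.276 ± 0.195 CPM in wild type, with a log2 fold change of 2.03. Its call ended without knockout replicate 3 (1.54, edgeR adjusted p = 0.074) or wild-type replicate 3 (0.061). The scavenger collectin gene Colec12, at 335 ± 27.8 against 381 ± 20.4 CPM, did not pass in edgeR and was lower under limma-voom (adjusted p = 0.039).

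Both alternative pathway genes on the list rose. Cfd, which encodes factor D, was at 42.3, 60.6 and 43.2 CPM in knockout and 1.301, 1.854 and 2.572 CPM in wild type, a fold of 25.4 (95% interval 17.9 to 36.1). The fold changes of its partner Cfb and of C3 in the same fit were 1.11 and 1.71. Cfp, which encodes properdin, the stabiliser of the alternative convertase, was at 16.3 ± 7.01 against 4.82 ± 0.627 CPM, a fold of 3.39 (edgeR adjusted p = 0.000789). It was highest in knockout replicate 3, and its log2 fold change was 1.35 without that library and 1.76 with it.

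Among 4 tested genes of C4a and the terminal pathway, C4a and C7 rose. C7 was at 8.80, 6.36 and 5.31 CPM in knockout and 1.19, 3.09 and 3.37 CPM in wild type, a fold of 2.68 (edgeR adjusted p = 0.00637). The C5 gene Hc, at 3.27 ± 1.23 against 3.73 ± 0.480 CPM, did not pass.

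Of the soluble regulators, Clu and Vtn rose. Clu, which encodes clusterin, an inhibitor of membrane attack, was at 40.4, 38.0 and 29.5 CPM in knockout and 10.2, 14.5 and 19.3 CPM in wild type, a fold of 2.45 (edgeR adjusted p = 0.00102). Vtn, the vitronectin gene, had a fold of 1.64 at the edge of the threshold (edgeR adjusted p = 0.0499). Its call ended without knockout replicate 1 (0.22) or 2 (0.050) or without wild-type replicate 1 (0.13) or 3 (0.15), and with other size factors. Cfi, the gene of factor I, which degrades active C3 and C4, did not pass, at 2.58 ± 0.187 against 3.36 ± 0.781 CPM.

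Membrane regulators mostly did not pass in edgeR, 4 of 5, of which Cd46 was higher under limma-voom (adjusted p = 0.046). Cr1l, the rodent convertase inhibitor Crry, stood at 83.5 ± 5.46 CPM in knockout against 74.8 ± 6.62 CPM in wild type (fold 1.12, 95% interval 0.971 to 1.28). Cd59a, which blocks membrane attack, was at 9.35 ± 0.993 against 9.57 ± 1.10 CPM (fold 0.976, 95% interval 0.775 to 1.23). Csmd1 rose by a fold of 1.97 (edgeR adjusted p = 0.0372), a call that ended without knockout replicate 3 (0.11) or without wild-type replicate 1 (0.11) or 3 (0.061), and under limma-voom (0.068).

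Of 7 tested receptors and binding proteins, 5 rose and 1 fell. C3ar1, the receptor of the C3a fragment, was at 13.4, 12.4 and 41.8 CPM in knockout and between 3.601 and 4.07 CPM in wild type, with replicate 3 again far above. Its log2 fold change was 2.58 (edgeR adjusted p = 0.0119), and 1.77 without knockout replicate 3. The call ended without wild-type replicate 1 (0.071) and without the low-count filter (0.074). C5ar1, the C5a receptor gene, had a log2 fold change of 2.16 (edgeR adjusted p = 0.0183), and 1.35 without knockout replicate 3. That call ended without wild-type replicate 2 (0.059). The integrin genes Itgam and Itgb2, which make complement receptor CR3 of myeloid cells, had log2 fold changes of 2.48 and 2.14, and of 1.81 and 1.54 without knockout replicate 3. Itgam shares 68.7% of its exon bases with the same-strand gene model Gm49368, so its counts are uncertain. C1qbp, a mitochondrial protein gene whose product also binds C1q, rose by a fold of 1.41. Calr, the chaperone calreticulin, which binds C1q at the cell surface, fell from 2040 ± 10.6 CPM in wild type to 1154 ± 61.7 CPM in knockout (log2 fold change -0.82, edgeR adjusted p = 4.66e-05).

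**Figure D5:**
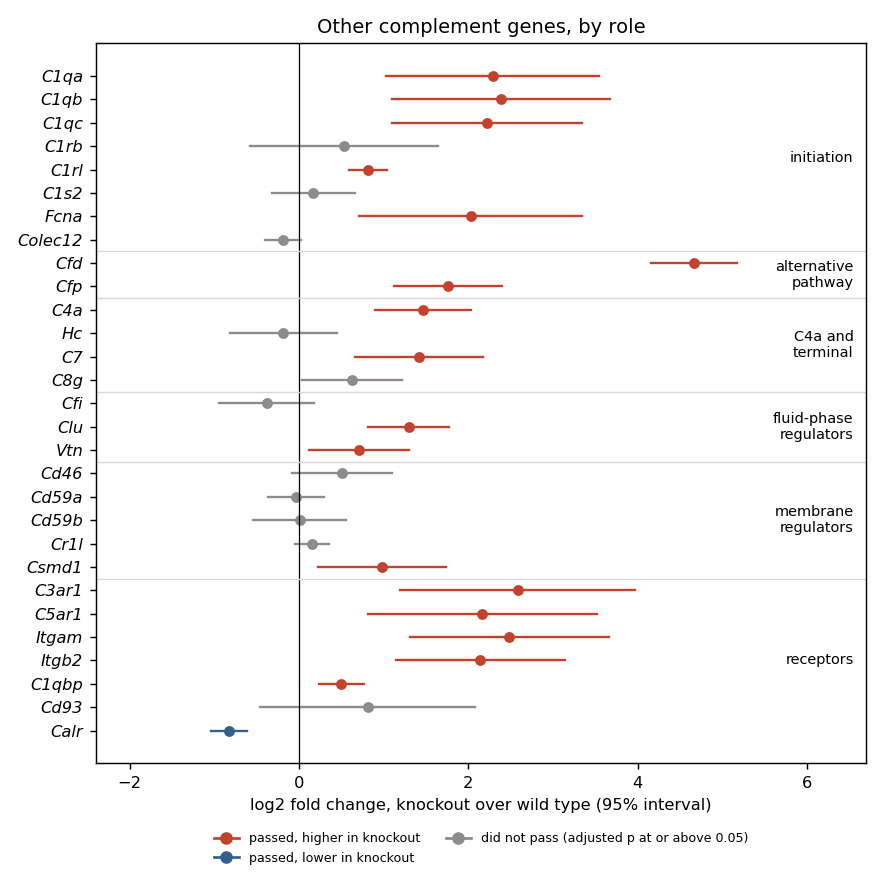
Log2 fold change, knockout over wild type, with 95% intervals for 29 of the 30 other complement genes tested, by role. Cfd lies farthest right at 4.67, and Calr, drawn in blue, fell (-0.82).

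Signals that act on complement genes include interferon, NF-kB, IL-6 and C/EBP factors. Of 26 such factors and receptors, all tested, 8 rose, 3 fell and 15 did not pass, with a median log2 fold change of 0.10. These counts are to be read against the 44.3% of all genes that passed, 22.6% higher and 21.7% lower. Cebpb stood at 117 ± 2.99 CPM in knockout against 85.8 ± 10.3 CPM in wild type, and Cebpa had a log2 fold change of 1.60. The interferon pathway genes Irf1 and Ifngr1 were higher, with log2 fold changes of 0.56 and 0.65, as was the IL-6 receptor gene Il6ra at 0.91. Others of the interferon pathway did not pass, with log2 fold changes of 0.21 for Irf3, -0.0086 for Irf9, -0.020 for Ifnar1 and -0.064 for Ifnar2. Those that fell were Cebpd (-0.39), Il6st (-0.45) and Ifngr2 (-0.26). The NF-kB genes Nfkb1, Nfkb2, Rela and Relb did not pass, with log2 fold changes between -0.12 and 0.18.

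C2 had the largest rise among the 9, and none fell. Over the 6 libraries the 3 genes of most similar pattern to C2, of 10496 compared, included Sntb1 (Pearson r = 0.9984). The points of this correlation share the libraries and the genotype difference, and 1741 genes had r above 0.9.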

How the data were processed

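Total RNA was depleted of ribosomal RNA and read as paired 150 bp reads, per the labels' protocols. The authors deposited raw counts per Ensembl gene, made with STAR and featureCounts on mm10 (GRCm38), per the submitters' processing notes. The sources used here do not give versions, annotation, strand setting or the handling of ambiguous reads. Symbols, exons and overlaps came from GENCODE M21, which held 53706 of 53801 identifiers.

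Counts were filtered with filterByExpr (minimum count 10, minimum total 15), scaled by TMM and tested across all 14816 genes kept with edgeR 4.0.16 in R 4.3.3 (robust legacy quasi-likelihood, 2-sided, Benjamini-Hochberg threshold 0.05, genotype as the single term). CPM are relative to TMM-scaled totals. The p-values set the genotype difference against the spread among the 3 libraries within a genotype. That spread was estimated over both genotypes, with information shared across genes. Intervals are at 95%. No 2 libraries of a genotype agreed within counting noise (chi-square per degree of freedom 10.2 to 26.3). Alternatives used DESeq2 1.42.0, limma 3.58.1, other scalings and filters, the replicate block, the suffix covariate and each library left out. The members and lists were chosen with earlier results of these data known. Named were the 9 members, their close copies, listed complement genes and, by correlation of log2 CPM (prior count 2, mean of at least 5 CPM), the 3 genes most like C2. Other genes were named after their values were seen. A few genes that this rule or these lists name are not reported here.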

Additional observations from a re-analysis of the deposited data

How the results depend on the processing

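Under 10 other settings the number of the 9 genes that passed was 4 or 5, and with 1 library left out it was 3 to 5. It was 3 without knockout replicate 1 or 2 or without wild-type replicate 1 or 2. The count over all genes ran from 6129 to 7829 under other settings and from 5276 to 6674 with 1 library left out, and that of the 51 other complement genes from 15 to 20 and from 15 to 19. With 1 library left out the log2 fold changes ran from 0.28 to 0.50 for C1ra, 0.24 to 0.34 for C1s1, 0.66 to 0.86 for C2, 0.59 to 1.002 for C3, 0.49 to 0.93 for C4b, -0.20 to 0.14 for Masp1, 0.044 to 0.34 for Cfb, -0.17 to 0.061 for Serping1 and -0.72 to 0.12 for Cd55. The sign of Masp1 turned under limma-voom (0.12), without knockout replicate 2 (0.03) and without wild-type replicate 3 (0.14). The cause was not tested. C1s1 moved from 0.30 to 0.24 under upper-quartile factors and no longer passed, while the median over all genes moved from 0.0084 to -0.047. Deviations of same-numbered libraries from their genotype means had correlations of -0.13, 0.012 and -0.14. Those of differently numbered libraries had correlations from -0.052 to 0.15. No pairing by number was seen, though 3 libraries per genotype cannot exclude one. With the replicate block 4 of the 9 passed, C1s1 having a log2 fold change of 0.30 and an edgeR adjusted p of 0.057, and 16 of the other complement genes passed, among which C1qb (0.11), C5ar1 (0.099) and Vtn (0.062) were lost. Genes at a few counts per library, such as Fcna and C1rb, are limited by depth.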
